A study of Homo sapiens with 8 samples.

Results

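The PAX3-FOXO1 axis was followed in SJRH30 cells through 24 h in 1% oxygen. It comprised the 2 partner genes of the fusion, PAX3 and FOXO1, and 8 genes known as targets or markers of the fusion protein, namely ALK, PDGFRA, FGFR4, MET, CNR1, PIPOX, TFAP2B and OLIG2. Members were all probe sets whose annotated gene symbol was exactly one of these names, which gave 24 probe sets for 10 genes, of 22215 probe sets tested and 11963 genes represented on the array. MET had 4 probe sets, PAX3, PDGFRA and CNR1 had 3 each, FOXO1, ALK, FGFR4, TFAP2B and OLIG2 had 2 each, and PIPOX had 1. SJRH30 is a single human rhabdomyosarcoma line grown as a culture, and the labels name neither the fusion nor any genetic change made for the study. Cells were taken before hypoxia (0 h) and at 6, 12 and 24 h of exposure to 1% oxygen in a gassed incubator, with 2 arrays per time that the labels call biological replicates. All groups came from the same line in serum-containing medium. Normoxic cultures matched for time were not analysed here, so the length of hypoxia and the length of culture cannot be told apart.

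PAX3 and FOXO1 each encode a transcription factor. PAX3 directs early muscle and neural crest development, and FOXO1 is held out of the nucleus by insulin and AKT signalling. In most alveolar rhabdomyosarcomas a translocation joins the DNA-binding part of PAX3 to the activating part of FOXO1. The resulting protein binds distal enhancers and keeps a set of receptor, myogenic and neural genes active. Probes of such arrays lie mostly near the 3′ end of a transcript, and the fusion transcript carries the 3′ part of FOXO1. A FOXO1 probe set can therefore register both FOXO1 and the fusion, and which transcripts each PAX3 or FOXO1 probe set read was not tested. In RNA from a whole culture, fewer cells expressing a gene and less RNA per cell cannot be told apart.

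The receptor genes ALK, on both of its probe sets, and PDGFRA, on 1 of 3, were higher at every hypoxic time, by up to 1.96-fold and 1.93-fold at 24 h. PIPOX, which encodes a peroxisomal enzyme that oxidises sarcosine and pipecolate, was called from 12 h and reached 2.27-fold at 24 h. One FOXO1 probe set was 1.26-fold higher at 24 h. OLIG2, a neural transcription factor gene, was lower at 12 h on both of its probe sets, and 1 of the 4 MET probe sets was lower at 12 and 24 h. No probe set of PAX3, FGFR4, CNR1 or TFAP2B passed the threshold at any time, though PAX3 was called lower under some alternative settings. Values are log2 RMA summaries as the authors deposited them, a difference of 1 on this scale is a 2-fold change, and a probe set was called at a limma adjusted p under 0.05 over all 22215 probe sets. At 6 h, 3 of 24 member probe sets were called, 3 higher and 0 lower, against a background of 2.7% of all probe sets called (1.85% higher and 0.855% lower). At 12 h, 7 were called, 4 higher and 3 lower, against 16.2% (6.36% and 9.85%). At 24 h, 7 were called, 5 higher and 2 lower, against 14.7% (6.86% and 7.8%). These were 12.5%, 29.2% and 29.2% of the member probe sets. Replicates lay wholly above those of 0 h for 8, 12 and 11 member probe sets at 6, 12 and 24 h, where 23.3%, 29% and 25.3% of all probe sets did so, and wholly below for 7, 6 and 5, where 30.3%, 32.7% and 32.2% did. Both ALK probe sets and 1 of PDGFRA were called higher at all 3 hypoxic times, as were 1.56% of all probe sets. The median change over the 24 was -0.01, 0.04 and 0.02 at 6, 12 and 24 h, against -0.02, 0.00 and -0.02 over all probe sets. The genes were chosen with earlier results of these arrays known, and the comparisons with 0 h share the same 2 arrays.

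**Figure D1:**
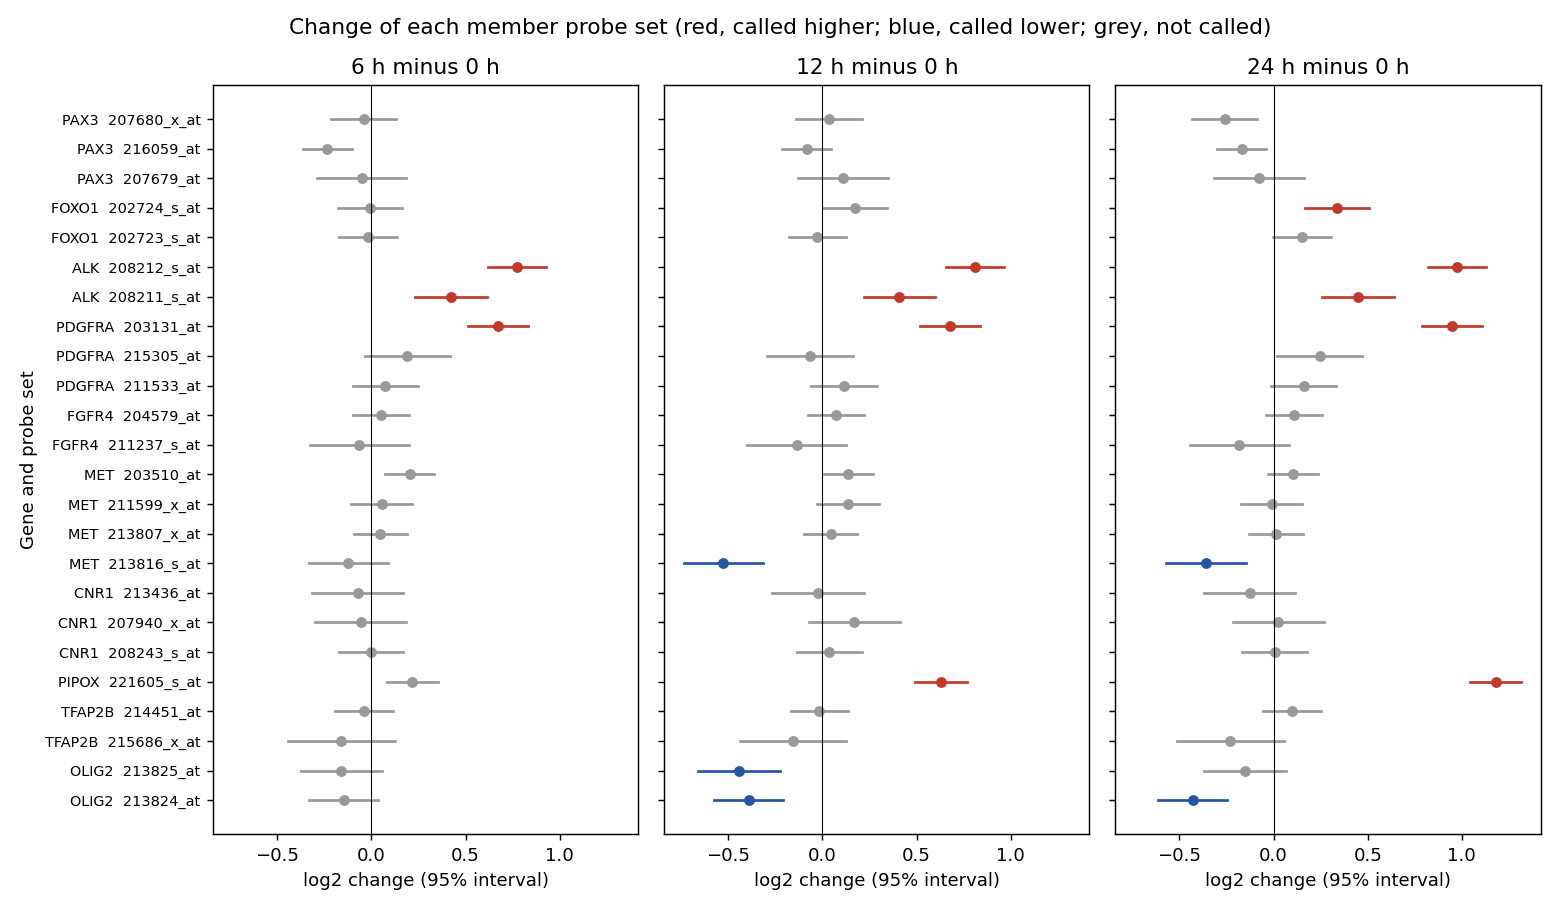
The log2 change of each of the 24 member probe sets at 6, 12 and 24 h minus 0 h, with its 95% interval from the limma fit, 1 row per probe set. The 2 ALK probe sets and the first PDGFRA probe set lie right of 0 at all 3 times, PIPOX moves further right with time, and the blue points at 12 h belong to 1 MET and both OLIG2 probe sets.

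Promoter sequence of the 3 genes with the largest rises was examined for the core motif that hypoxia-inducible factors bind, ACGTG or GCGTG. It was read from RefSeq (build GRCh38.p14) over the 250 bases before each annotated start site, on both strands, and is shown so that the windows of these genes can be compared. The capitals mark matches, and a palindromic CACGTG counts as 2 overlapping ones. ALK had 2 start sites, at chr2:29921587-29921836 and chr2:29223824-29224073 on the minus strand, PDGFRA 2 on the plus strand, at chr4:54229043-54229292 and chr4:54233710-54233959, and PIPOX 1 on the plus strand, at chr17:29042891-29043140.
ALK start site 1: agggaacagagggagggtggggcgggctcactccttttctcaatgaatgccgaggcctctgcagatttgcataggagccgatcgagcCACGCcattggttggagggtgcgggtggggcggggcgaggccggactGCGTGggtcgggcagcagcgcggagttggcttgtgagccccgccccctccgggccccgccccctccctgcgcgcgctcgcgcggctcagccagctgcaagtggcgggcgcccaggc
ALK start site 2: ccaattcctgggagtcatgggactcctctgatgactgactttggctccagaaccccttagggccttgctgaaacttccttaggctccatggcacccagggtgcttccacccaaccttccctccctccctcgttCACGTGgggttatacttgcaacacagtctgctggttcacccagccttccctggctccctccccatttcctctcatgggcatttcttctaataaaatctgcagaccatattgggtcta
PDGFRA start site 1: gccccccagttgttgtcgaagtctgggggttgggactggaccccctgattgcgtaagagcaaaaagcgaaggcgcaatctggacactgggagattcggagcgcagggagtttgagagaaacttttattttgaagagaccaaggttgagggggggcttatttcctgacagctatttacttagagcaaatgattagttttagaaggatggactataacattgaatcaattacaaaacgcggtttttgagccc
PDGFRA start site 2: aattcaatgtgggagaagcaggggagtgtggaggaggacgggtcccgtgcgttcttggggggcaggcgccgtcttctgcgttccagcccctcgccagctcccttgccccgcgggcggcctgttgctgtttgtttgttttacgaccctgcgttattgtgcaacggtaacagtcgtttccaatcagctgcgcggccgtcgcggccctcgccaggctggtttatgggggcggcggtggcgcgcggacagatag
PIPOX start site 1: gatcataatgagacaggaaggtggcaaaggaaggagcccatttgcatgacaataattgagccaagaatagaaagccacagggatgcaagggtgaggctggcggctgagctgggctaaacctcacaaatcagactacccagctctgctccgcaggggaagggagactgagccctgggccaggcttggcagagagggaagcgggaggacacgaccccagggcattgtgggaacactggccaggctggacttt
Both ALK windows held the motif, at 163 and 116 bases before the first start site and as a single CACGTG 117 bases before the second. The PDGFRA and PIPOX windows held no match. Over the 9 members with an entry, 10 of 17 windows (58.8%) held it, among them both of FGFR4, 4 of 6 of CNR1 and the single windows of PAX3 and MET, against 43.2% of 35116 windows of the same length in the whole table. The letters ATTA, the core that the homeodomain of PAX3 recognises, were in 12 of the 17 windows and in 47.4% of all windows. CNR1 alone supplied 6 of the 17 windows, and every one of them held ATTA. Windows of 1 gene are not separate members, and those of the first and second CNR1 start sites overlap slightly. Neither share is therefore a share of genes. A match is a description of these letters and not a mapped binding site.

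Of the fusion partners, PAX3 did not pass the threshold on any of its 3 probe sets in the fit of all 22215 probe sets, but 2 passed under alternative settings. Its brightest probe set, 207680_x_at, read 7.72 and 7.82 at 0 h, 7.71 and 7.75 at 6 h, 7.76 and 7.85 at 12 h, and 7.44 and 7.59 at 24 h. Both 24 h arrays lay below those of 0 h, and the change was -0.26 ± 0.07 (SE; adjusted p = 0.0571). That decrease passed under 7 of the alternatives. It passed with arrays centred on their median (adjusted p = 0.0499), with an intensity trend in the variance (0.0262), without the dimmest 25% or 50% of probe sets (0.034 and 0.0114), with 1 probe set per gene (0.0455), with a replicate block (0.0416) and without 24 h replicate 2 (0.0452). Over all alternatives tried its adjusted p at 24 h lay between 0.0114 and 0.287. The second probe set, 216059_at, read 6.36 and 6.32 at 0 h, 6.13 and 6.09 at 6 h, 6.25 and 6.26 at 12 h, and 6.16 and 6.18 at 24 h, below 0 h at each later time (-0.23, -0.08 and -0.17; adjusted p = 0.0802, 0.344 and 0.0872). It was called lower at 6 h and 24 h without the dimmest 25% of probe sets (adjusted p = 0.0412 and 0.048). The third, 207679_at, showed no such order, at -0.05, 0.11 and -0.08. Its 24 h replicates, 5.96 and 6.27, lay on either side of the 0 h values.

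FOXO1 was higher on 1 of its 2 probe sets, and at 24 h only. Probe set 202724_s_at read 9.037 and 9.001 at 0 h, 9.10 and 8.93 at 6 h, 9.20 and 9.19 at 12 h, and 9.30 and 9.40 at 24 h. The 6 h replicates spanned the 0 h values, while the 12 h and 24 h replicates lay above them. The change was 0.17 ± 0.07 at 12 h (adjusted p = 0.15) and 0.34 ± 0.07 at 24 h (adjusted p = 0.0225), or 1.26-fold. The call at 24 h was lost without 0 h replicate 1 (adjusted p = 0.105), 0 h replicate 2 (0.137) or 24 h replicate 2 (0.0825). The other probe set, 202723_s_at, ended at 9.12 and 9.24 at 24 h, against 9.03 and 9.02 at 0 h, and was not called (0.15 ± 0.07, adjusted p = 0.186). Over the 8 arrays the 2 probe sets correlated at 0.66, a description only. No value is given for the fusion itself, because no probe set is annotated to its transcript.

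ALK, which encodes a receptor tyrosine kinase of the developing nervous system, rose early and then stayed high. Probe set 208212_s_at read 9.83 and 9.75 at 0 h, 10.56 and 10.58 at 6 h, 10.63 and 10.58 at 12 h, and 10.82 and 10.70 at 24 h. Every hypoxic array lay above both 0 h arrays. The mean was 10.57 ± 0.01 at 6 h, 10.60 ± 0.04 at 12 h and 10.76 ± 0.08 at 24 h, against 9.79 ± 0.06 at 0 h (SD, n = 2 each). The changes were 0.77, 0.81 and 0.97 (SE 0.07 each; adjusted p = 0.0014, 0.000542 and 0.000174 in limma). Already 79.6% of the 24 h change was present at 6 h, and the step from 6 to 24 h did not pass (0.20 ± 0.07, adjusted p = 0.193). The dimmer probe set 208211_s_at read 6.79 and 6.81 at 0 h, 7.22 and 7.22 at 6 h, 7.23 and 7.18 at 12 h, and 7.13 and 7.37 at 24 h. It too lay above 0 h on every hypoxic array, with changes of 0.42, 0.41 and 0.45 (adjusted p = 0.0426, 0.016 and 0.0114). Its calls were lost at all 3 times without 0 h replicate 1 or 2 (adjusted p between 0.0746 and 0.256), and at 6 h also without 6 h replicate 1 or 2 (0.251 and 0.193).

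PDGFRA, the gene of the platelet-derived growth factor receptor alpha, behaved much like ALK on 1 of its 3 probe sets. Probe set 203131_at read 7.59 and 7.65 at 0 h, 8.31 and 8.28 at 6 h, 8.29 and 8.31 at 12 h, and 8.65 and 8.49 at 24 h. The hypoxic arrays again lay apart from those of 0 h, and the 24 h pair lay above the 6 h and 12 h arrays. The changes were 0.67, 0.68 and 0.95 (SE 0.07 each; adjusted p = 0.00369, 0.0015 and 0.000217), and the step from 6 to 24 h was 0.28 ± 0.07 (adjusted p = 0.102). The call at 6 h was lost without 0 h replicate 1 (adjusted p = 0.0566) or 6 h replicate 1 (0.0574). The other probe sets did not pass. Probe set 215305_at averaged 5.96 ± 0.14 at 24 h, against 5.71 ± 0.08 at 0 h (SD, n = 2 each). That change was 0.25 ± 0.10 (SE; limma adjusted p = 0.144). At 6 h it was 0.19, but at 12 h it was -0.07 and the replicates overlapped those of 0 h, unlike 203131_at. Probe set 211533_at lay between 3.24 and 3.46 on all 8 arrays, at the 2.2 percentile of brightness among all probe sets.

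FGFR4, a fibroblast growth factor receptor gene that the fusion protein activates, had no call. Probe set 204579_at read 11.45 and 11.38 at 0 h, 11.44 and 11.49 at 6 h, 11.47 and 11.50 at 12 h, and 11.47 and 11.58 at 24 h. Its change at 24 h was 0.11, with a 95% interval from -0.04 to 0.26. Probe set 211237_s_at was at -0.06, -0.14 and -0.18, with 24 h replicates of 9.57 and 9.93 against 9.97 and 9.90 at 0 h. Over both probe sets and all 3 times the intervals ran from -0.44 to 0.26, so a change of up to 1.36-fold remains possible. None of the 6 tests reached even an unadjusted p under 0.05, although 211237_s_at passed at 24 h without 24 h replicate 2 (-0.36, adjusted p = 0.0448).

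The MET probe sets disagreed. MET encodes the receptor of hepatocyte growth factor. Probe set 213816_s_at read 7.80 and 7.74 at 0 h, 7.68 and 7.61 at 6 h, 7.37 and 7.11 at 12 h, and 7.37 and 7.46 at 24 h, below 0 h at every later time. Its changes were -0.12 (adjusted p = 0.563), -0.53 ± 0.09 (adjusted p = 0.00931) and -0.36 ± 0.09 (adjusted p = 0.0371). The brightest probe set, 203510_at, lay the other way, with 11.48 and 11.45 at 6 h against 11.25 and 11.27 at 0 h, and its changes of 0.20, 0.14 and 0.10 were not called (adjusted p = 0.113, 0.144 and 0.279). It was called higher at 6 and 12 h with an intensity trend in the variance (adjusted p = 0.0044 and 0.0202), and without the dimmest 50% of probe sets (0.0195 and 0.0466). The x_at probe sets 211599_x_at and 213807_x_at, a class whose probes can match other sequences, lay between -0.01 and 0.14. No direction is given for MET as a gene. The 12 h call of 213816_s_at was lost without 0 h replicate 1 or 2 (adjusted p = 0.073 and 0.0587) and in a fit of only the times compared (0.0512), and its 24 h call without any single array of 0, 6 or 24 h (0.0672 to 0.188).

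**Figure D2:**
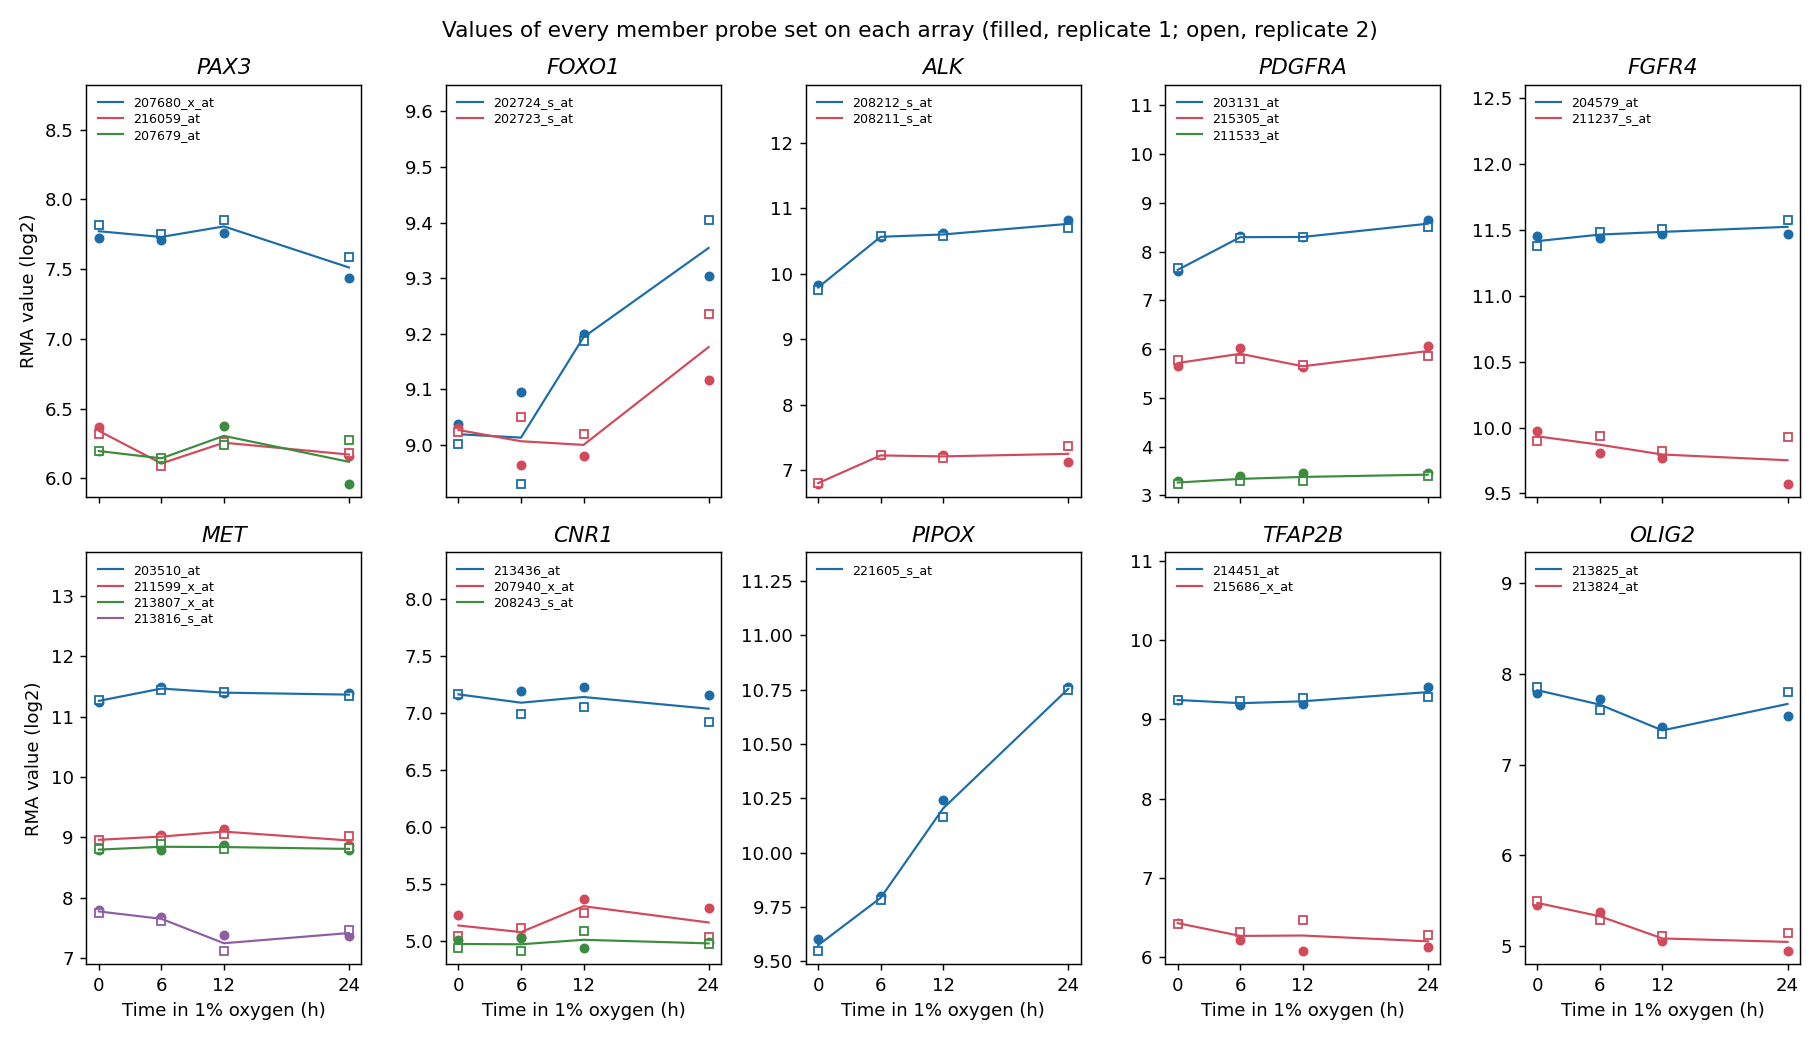
RMA values (log2) of all 24 member probe sets against time in 1% oxygen (h), 1 panel per gene with its own axis. Filled circles are replicate 1, open squares replicate 2 and lines join the means of n = 2. ALK and PDGFRA step up between 0 and 6 h on their upper probe sets, PIPOX climbs from 9.60 and 9.55 at 0 h through each time to 10.76 and 10.75 at 24 h, and the probe sets of MET and FGFR4 do not share a course.

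PIPOX had the largest change among the 24 member probe sets at 24 h, and it passed the threshold from 12 h on. Its probe set, 221605_s_at, read 9.60 and 9.55 at 0 h, 9.80 and 9.78 at 6 h, 10.24 and 10.17 at 12 h, and 10.76 and 10.75 at 24 h. No replicates of any 2 times overlapped. The change was 0.22 ± 0.06 at 6 h (adjusted p = 0.108), 0.63 ± 0.06 at 12 h (0.00102) and 1.18 ± 0.06 at 24 h (3.46e-05). Only 18.5% of the 24 h change was present at 6 h and 53.4% at 12 h. PIPOX was the 1 member probe set called between 6 and 24 h (0.96 ± 0.06, adjusted p = 0.000853), a step at which 1.48% of all probe sets were called, 1.05% higher and 0.428% lower. Its 12 h and 24 h calls held without each of the 8 arrays in turn. At 6 h it was called with an intensity trend in the variance (adjusted p = 0.00896) or without the dimmer 50% of probe sets (0.0181).

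CNR1, the gene of the cannabinoid receptor of the nervous system, had no call on its 3 probe sets. The brightest, 213436_at, read 7.16 and 7.17 at 0 h, 7.19 and 6.99 at 6 h, 7.23 and 7.06 at 12 h, and 7.16 and 6.92 at 24 h, so the 6 h and 12 h replicates spanned the 0 h values and the 24 h pair overlapped them. All 9 changes lay between -0.13 and 0.17, with intervals from -0.37 to 0.41, and 0 of the 9 had an unadjusted p under 0.05 in limma. TFAP2B, which encodes the transcription factor AP-2 beta and is used as a marker of fusion-positive tumours, also gave 0 of 6 tests at that level. Probe set 214451_at read 9.25 and 9.24 at 0 h, 9.18 and 9.23 at 6 h, 9.19 and 9.27 at 12 h, and 9.40 and 9.29 at 24 h, and the intervals over both probe sets ran from -0.51 to 0.25.

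OLIG2, better known from the oligodendrocyte lineage and another marker of the fusion, was lower. Probe set 213825_at read 7.79 and 7.85 at 0 h, 7.72 and 7.60 at 6 h, 7.42 and 7.34 at 12 h, and 7.54 and 7.80 at 24 h. Its lowest values were at 12 h (-0.44 ± 0.09, adjusted p = 0.0193), and at 24 h the replicates overlapped those of 0 h (-0.15, adjusted p = 0.343). Probe set 213824_at read 5.45 and 5.50 at 0 h, 5.37 and 5.29 at 6 h, 5.06 and 5.11 at 12 h, and 4.95 and 5.15 at 24 h. It fell by 0.39 at 12 h and 0.43 at 24 h (SE 0.08 each; adjusted p = 0.0164 and 0.0117). All these calls were lost without 0 h replicate 1 or 2 (adjusted p between 0.067 and 0.121), and that of 213825_at also without 12 h replicate 2 (0.067).

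Over the time course as a whole, a moderated F-test of the 3 hypoxic times against 0 h called 7 of 24 member probe sets (29.2%), against 12.6% of all probe sets. They were PIPOX, both of ALK, and 1 each of PDGFRA, FOXO1, MET and OLIG2. ALK and PDGFRA had 70.8% or more of their 24 h change at 6 h. For known hypoxia-induced genes that share was 89.5% for BNIP3, a mitophagy receptor gene, 69.3% for EGLN3, an oxygen-sensing prolyl hydroxylase gene, and 101% for the glucose transporter gene SLC2A1. The share was 103% for VEGFA, 84.4% for PDK1 and 104% for DDIT4. The brighter ALK probe set, at 79.6%, and that of PDGFRA, at 70.8%, exceeded EGLN3 only, while the dimmer ALK probe set was at 94.5%. All 6 of these hypoxia check genes were called higher at each time, with a median change of 2.02, 2.16 and 2.31 at 6, 12 and 24 h.

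**Figure D3:**
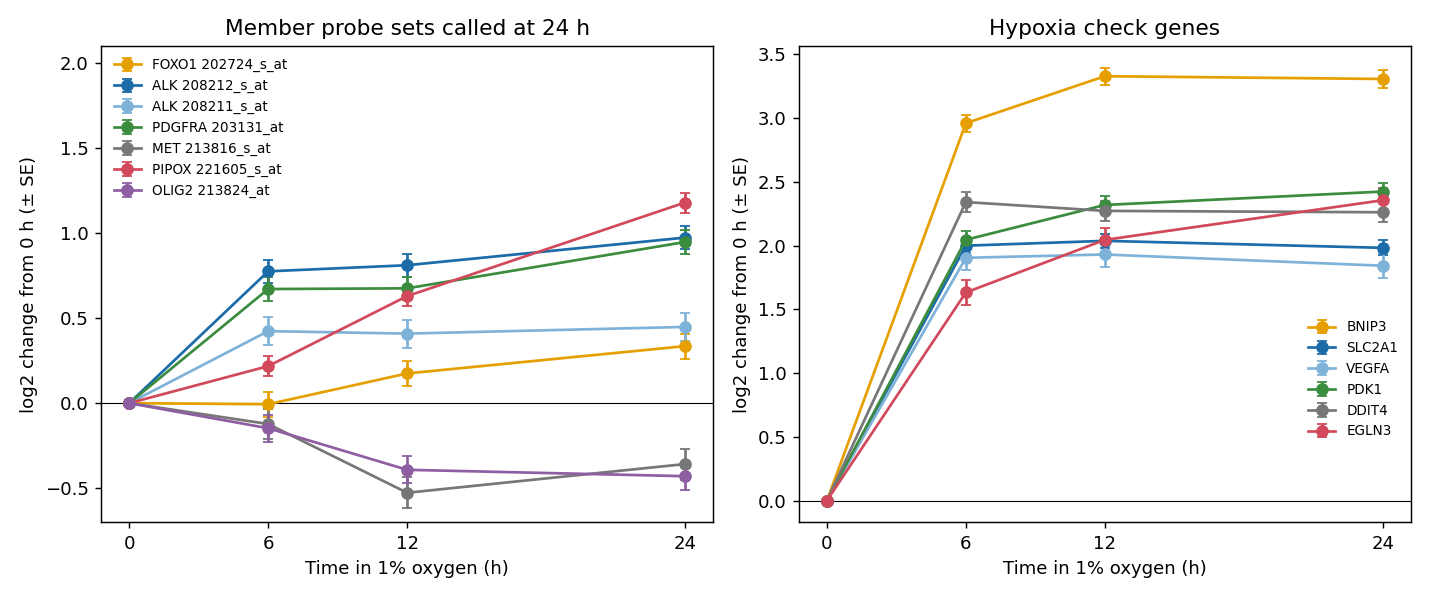
Left, log2 change from 0 h (± SE) of the 7 member probe sets called at 24 h, against time in 1% oxygen (h). Right, the same for 6 known hypoxia-induced genes on a larger axis; ALK, PDGFRA and the check genes have most of their change by 6 h, while PIPOX and FOXO1 rise later.

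For FOXO1, ALK, PDGFRA and PIPOX, whose brightest probe set was called by the F-test, the genes with the most similar course were sought over the 8 arrays, among 1566 other genes called by that test. ALK was most like RPL27A (Pearson r = 0.995), OXSM (0.995) and SMPDL3A (0.993), and PDGFRA most like MATN2 (0.9895), CFI (0.989) and TMT1A (0.988). PIPOX was most like TNNI2 (0.994), which encodes a troponin of fast muscle and was itself at 0.29, 0.68 and 1.23, then QDPR (0.993) and PIGV (0.991). FOXO1 was most like S100A10 (0.983), HRC (0.961) and GSTT2 (0.953). These correlations describe shared time points and have no test.

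Other genes linked to the fusion protein were examined as a list of 32, of which 30 were measured, each by its brightest probe set. This list, like the members, was chosen with earlier results of these data known, so its counts are a description only. At 6 h 2 of the genes were higher and 1 lower, at 12 h 9 and 2, and at 24 h 12 and 0. MYOG, among those higher at 24 h, is counted again among the muscle markers below. The background over 11963 genes was 1.95% higher and 0.878% lower at 6 h, 6.55% and 10.3% at 12 h, and 7.86% and 8.02% at 24 h. The median change was 0.02, 0.01 and 0.08, against -0.02, 0.00 and -0.02 over all genes (-0.0185, 0.0021 and -0.015 unrounded). The largest rises at 24 h were in NELL1 (0.71 ± 0.06, adjusted p = 0.00047), TGFA, an epidermal growth factor receptor ligand gene (0.66 ± 0.11), DCX, a microtubule-binding protein gene of migrating neurons (0.59 ± 0.06), and ABAT, which breaks down GABA (0.58 ± 0.08). NELL1 read 10.58 and 10.66 at 24 h, against 9.91 and 9.90 at 0 h. The chemokine receptor gene CXCR4 (0.50) and NELL1 (0.34) were the 2 called higher at 6 h, and the survival gene BCL2L1 (-0.42) was the 1 called lower; CXCR4 and BCL2L1 were named after their values were seen.

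**Figure D4:**
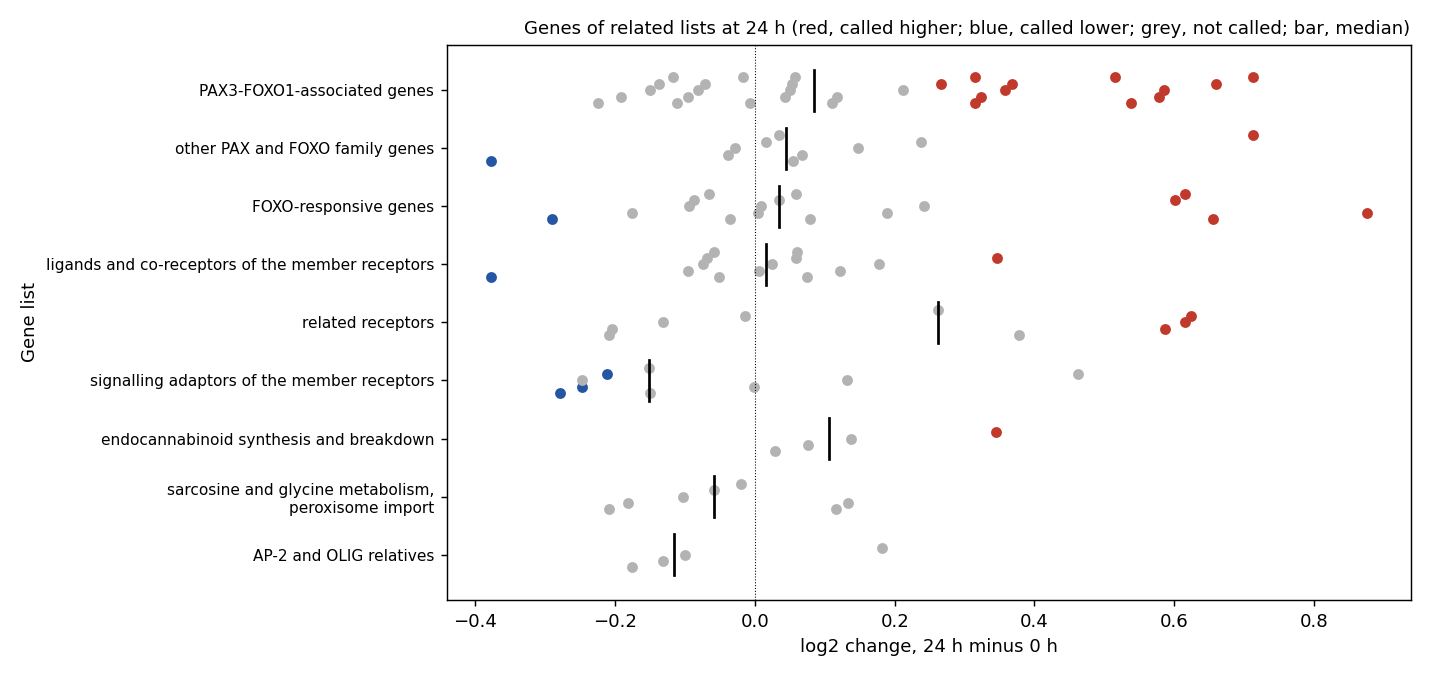
The log2 change at 24 h minus 0 h of each measured gene in 9 related lists, 1 row per list and 1 point per gene by its brightest probe set. The vertical bars are the list medians. Of 30 PAX3-FOXO1-associated genes 12 are called higher and 0 lower, and of 9 signalling adaptors 0 are called higher and 3 lower. Over all genes 7.86% are called higher and 8.02% lower at 24 h.

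Among 10 measured relatives of PAX3 and FOXO1, PAX5 rose by 0.71 ± 0.09 at 24 h (adjusted p = 0.00323) and PAX6 fell by 0.38 ± 0.09 (adjusted p = 0.0334). Both had also passed at 12 h. PAX7, which forms a sister fusion with FOXO1 in other tumours, was at 0.02, and FOXO3 was at 0.05. Of 17 measured genes known to respond to FOXO factors, 4 were higher and 1 lower at 24 h, with a median of 0.03. Over all genes 7.86% were higher and 8.02% lower, with a median of -0.015. TXNIP, an inhibitor of glucose uptake, rose by 0.88, the cyclin gene CCNG2 by 0.66, the insulin receptor gene INSR by 0.62 and the repressor gene BCL6 by 0.60, while GADD45A, named after its value was seen, fell by 0.29 (adjusted p = 0.0417).

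Relatives of the receptors gave 3 of 9 higher and 0 lower at 24 h, namely FGFR2 (0.62), INSR (0.62) and FGFR1 (0.59). For this and the lists below, 7.86% of all genes were called higher and 8.02% lower at 24 h, with a median of -0.015. Of 14 measured ligands, FGF8 rose by 0.35 (adjusted p = 0.0479) and FGF2 fell by 0.38 (adjusted p = 0.0333). The PDGFRA ligand genes PDGFA and PDGFC were at -0.06 and -0.07 and the MET ligand gene HGF at -0.05, none called. Of 9 measured adaptor genes, 0 rose and 3 fell at 24 h, namely SHC1 (-0.28), SOS1 (-0.25) and GRB2 (-0.21), with a median of -0.15. Of 4 endocannabinoid genes, ABHD6 was higher at 24 h (0.35, adjusted p = 0.014) and MGLL, which breaks down an endocannabinoid, lower at 12 h (-0.51, adjusted p = 0.00966). In the sarcosine and peroxisome list around PIPOX, 7 of 9 genes were measured. Limma called 0 of 7 at any of these times, and 0 had an unadjusted p under 0.05. PEX7 was at -0.21 and GNMT at -0.18 at 24 h. GNMT, BHMT and SHMT1 were dim, at the 16.4, 16.8 and 12.5 percentile of brightness, so a change in them could be missed. Of 4 measured AP-2 and OLIG relatives 0 were called, with 2, 1 and 1 at an unadjusted p under 0.05 in limma at 6, 12 and 24 h. The share of all genes at that unadjusted level is not given here, so these counts cannot be set against it. TFAP2A was at 0.18 and SOX10 at -0.18 at 24 h.

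The labels describe the cell type as muscle fibroblasts. The 13 myogenic markers averaged 8.82 to 9.04 on the 8 arrays but differed widely in level. At 0 h ACTC1 averaged 13.83, MYOD1 12.08 and MYOG 9.89, while TNNT3 averaged 5.27, MYH8 4.15 and MYH3 3.69. At 24 h, 4 of the 13 were called higher (MYOG, MYH3, MYH8 and MYL4) and 2 lower (CDH15 and ACTC1). Over all genes 7.86% were called higher and 8.02% lower at 24 h. MYH3 and MYH8 were dim, at the 9.5 and 14.3 percentile of brightness among all probe sets. The means of 8 fibroblast, 5 endothelial, 4 blood, 4 epithelial and 4 neural markers lay between 4.91 and 6.71. Some single genes of these lists were much brighter, with COL3A1 at 10.68, COL1A1 at 8.19 and TEK at 7.81 at 0 h. Single genes were called higher (COL3A1 at 6 and 12 h, TEK at 6 and 24 h, EPCAM at 24 h). The 62 control probe sets averaged 9.73, 9.70 and 9.79 at 6, 12 and 24 h, against 9.51 at 0 h. The part of the muscle markers and of the control shift in the members' changes was not tested.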

How the data were processed

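Expression was measured on 8 Affymetrix arrays, 2 at each of 0, 6, 12 and 24 h. The deposited log2 values are RMA probe set summaries per the submitters' processing notes; the sources used here give neither its version nor its settings. RMA makes the distributions of arrays alike, so each change is relative to the other transcripts of an array. Precision is limited by the number of arrays, and p-values measure only the spread between these samples. The table held 22277 probe sets; 62 controls were set aside. Of the rest, 19064 had 1 symbol in the platform annotation, 1043 several, none of which named a member, and 2108 none. List symbols were updated through Entrez identifiers, of which 19052 matched the RefSeq gene table.

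Group means were fitted with limma 3.58.1 in R 4.3.3 to all 8 arrays (4 residual and 3.7 prior degrees of freedom), two-sided, with Benjamini-Hochberg adjustment over all 22215 probe sets per comparison. Lists used the probe set with the highest mean per gene. Named from a list were up to 4 called genes with the largest 24 h change, or the 2 largest where none was called; other ligands, relatives and markers given with values were named after these were seen. Members and lists were chosen with earlier results of these data known. Data were simulated for the comparison of 24 h with 0 h (22215 probe sets, 200 changed, 10 simulations). The fit recovered 84.2% of changes of 0.5 and 99.7% of changes of 1, with 6.38% false calls. The real comparison had 3257 probe sets called (14.7%), many more than were changed in the simulation. The adjusted threshold depends on that share, so these percentages need not carry over to the data. The replicate numbers were not used as pairs in the main fit, and whether same-numbered cultures were paired is not known.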

Additional observations from a re-analysis of the deposited data

How the results depend on the processing

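The count of called member probe sets was 3, 7 and 7 at 6, 12 and 24 h against 0 h, 1 between 24 and 6 h and 7 in the F-test. Quantile normalization and centring arrays on their median left these at 3, 7, 7 or 8, 1 and 7. RMA had already made the arrays alike, with medians between 6.69 and 6.72, so these 2 settings are a weak check. An intensity trend in the variance gave 5 at 6 h and 4 between 24 and 6 h. It also brought in MET 203510_at at 12 h (limma adjusted p = 0.0202) and PAX3 207680_x_at at 24 h (0.0262). Leaving out the dimmest 25% of probe sets, and with them 1 of the 24, gave 2 between 24 and 6 h. This setting also called PAX3 216059_at lower at 6 and 24 h (limma adjusted p = 0.0412 and 0.048) and PAX3 207680_x_at lower at 24 h (0.034). Leaving out the dimmer 50%, and with them 8 of the 24, gave 5 at 6 h and 3 between 24 and 6 h. MET 203510_at at 12 h (limma adjusted p = 0.0466) and PAX3 207680_x_at at 24 h (0.0114) were also called then. Testing 1 probe set per gene, 10 in all, gave 4 at 12 h and 4 in the F-test. It brought in PAX3 207680_x_at at 24 h (limma adjusted p = 0.0455). Leaving out each array in turn, with the lone array assumed to vary like the other groups, gave 1 to 3 at 6 h, 3 to 7 at 12 h, 3 to 7 at 24 h, 1 between 24 and 6 h each time and 3 to 7 in the F-test. Without 0 h replicate 1 or 2 the counts were 1 or 2 at 6 h, and 3 at 12 h, 3 at 24 h and 3 in the F-test with either; the F-test also gave 3 without 6 h replicate 1 or 2. The calls that held under every alternative run were those of ALK 208212_s_at at all 3 times, PDGFRA 203131_at at 12 and 24 h and PIPOX at 12 and 24 h. With a replicate block the counts were 2, 7 and 8 at 6, 12 and 24 h, 1 between 24 and 6 h and 6 in the F-test. The block ended the 6 h call of ALK 208211_s_at (adjusted p = 0.074) and brought in PAX3 207680_x_at at 24 h (0.0416). Deviations of same-numbered arrays correlated only between -0.14 and 0.08, so no strong effect shared by replicate number was seen. With 2 arrays per time this cannot tell whether same-numbered cultures were paired. No called change of a member turned its direction under any alternative. Detection calls are not in the values used here, so whether the dimmest probe sets were above background is unknown.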
